A study of Rattus norvegicus with 6 samples.

Results

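The genes described here are Cyp2e1, Por, Aox1, Xdh, Cyb5a, Cyb5r3, Ephx1 and Cryl1, a set of 8 genes of microsomal and related cytosolic oxidation named by symbol. All 8 had a probe set on the arrays, out of 10411 genes with one, and they were read by 9 of the 12783 probe sets that the annotation gives to 1 gene, with 2 for Por. Of the 8, Cyp2e1, Por, Aox1 and Cryl1 are on the study's own list of genes with raised expression, which was chosen on these same arrays, so their direction here is not independent evidence. The study also measured these genes by real-time PCR in the same tissue. There each was higher in diabetic muscle, significantly for Cyp2e1, Por and Aox1 but not for Cryl1. Xdh, Cyb5a, Cyb5r3 and Ephx1 are not on that list. It required a change of at least 2-fold, significance in the study's own test and consistent present or absent calls. Total RNA was taken from the left costal hemidiaphragm of male Wistar rats. The diabetic group (n = 3) was made by 1 intraperitoneal injection of streptozotocin (60 mg/kg in citrate buffer), which destroys insulin-producing cells, at 8 weeks of age, and the normal group (n = 3) received the buffer alone. Muscle was removed 4 weeks after the injection from all 6 rats, after an overnight fast and under ketamine, xylazine and acepromazine, and no rat was given insulin or another glucose-lowering drug. Each rat had 1 Affymetrix RAE 230A array, and each value is an MAS 5.0 signal, a linear intensity of a probe set that is scaled per array.

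Microsomal oxidation takes place on the membrane of the endoplasmic reticulum. A cytochrome P450 inserts an oxygen atom into its substrate, using electrons that NADPH passes through the flavoprotein Por, the reductase shared by all microsomal P450s. A parallel chain runs from NADH through the reductase Cyb5r3 to cytochrome b5, encoded by Cyb5a, which supplies the fatty acid desaturases and can also supply some P450s. Cyp2e1 oxidizes small molecules such as ethanol and acetone, hydroxylates fatty acids and releases reactive oxygen species. It is best known from liver, where fasting and diabetes raise it. Ephx1, the microsomal epoxide hydrolase, opens epoxides that P450s form. Aox1 and Xdh are cytosolic enzymes of a different kind, molybdenum flavoproteins that oxidize aldehydes and purines, and Xdh can be converted to a form that passes its electrons to oxygen. Cryl1 is a cytosolic dehydrogenase of L-gulonate in the uronate pathway.

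The probe sets of the arrays carry no genome position, so the members are placed here through RefSeq, whose promoter table (build GRCr8, 250 bases before to 50 bases after each annotated start) held all 8 genes, with 2 starts for Ephx1. The promoters of Cyp2e1, Por and Cyb5a are printed because these genes gave the largest rise, the rise of its electron donor and the only fall among the members. Each is 5′ to 3′ on the strand of the gene, and capitals mark matches, on either strand, to TATAAA (the TATA box), GGGCGG (the GC box), CCAAT (the CCAAT box), TGACNNNGC (the core of the antioxidant response element) or GTAAACA (a forkhead factor motif).
Cyp2e1, chr1:205269717-205270016, plus strand: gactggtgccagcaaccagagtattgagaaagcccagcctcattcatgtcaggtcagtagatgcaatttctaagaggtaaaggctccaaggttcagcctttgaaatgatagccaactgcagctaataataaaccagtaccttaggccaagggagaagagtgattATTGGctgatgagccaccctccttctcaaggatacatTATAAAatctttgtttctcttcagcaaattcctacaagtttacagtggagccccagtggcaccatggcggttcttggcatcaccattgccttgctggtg
Por, chr12:26635760-26636059, minus strand: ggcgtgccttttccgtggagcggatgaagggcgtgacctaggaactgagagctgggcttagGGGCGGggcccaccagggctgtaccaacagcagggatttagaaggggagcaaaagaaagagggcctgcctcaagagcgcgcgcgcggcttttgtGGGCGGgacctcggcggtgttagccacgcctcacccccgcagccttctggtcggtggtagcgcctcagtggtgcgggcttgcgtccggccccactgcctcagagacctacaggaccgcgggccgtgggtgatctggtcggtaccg
Cyb5a, chr18:80487759-80488058, plus strand: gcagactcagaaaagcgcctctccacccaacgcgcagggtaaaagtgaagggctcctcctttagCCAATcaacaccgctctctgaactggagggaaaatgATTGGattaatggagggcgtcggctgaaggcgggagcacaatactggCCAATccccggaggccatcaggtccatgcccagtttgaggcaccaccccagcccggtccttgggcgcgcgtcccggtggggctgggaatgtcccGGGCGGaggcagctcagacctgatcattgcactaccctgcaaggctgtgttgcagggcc

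The Cyp2e1 window held 1 TATAAA, 49 to 44 bases before the annotated start, and 1 reversed CCAAT. It was the only member window with a TATAAA, a motif found in 14.2% of the 33469 promoters of the table. The Por window held 2 matches to GGGCGG, found in 33.1% of promoters. The Cyb5a window held 3 matches to CCAAT, found in 37.5%, and 1 to GGGCGG. TGACNNNGC was found in 12.1% of promoters and among the members only at the second start of Ephx1, where it shares 1 base with a reversed CCAAT. No member window held GTAAACA, found in 3.78% of promoters. These matches describe the letters in the windows and are not binding sites.

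Across the arrays, 9519 probe sets lay above the filter, a mean signal over 105.8, which is the 40th percentile of all probe sets other than controls. At an adjusted p under 0.05 in limma's moderated test, 314 were higher (3.3%) and 331 lower (3.48%) in diabetic diaphragm, 6.78% in all. Median signals of the 6 arrays lay between 167.1 and 180.5. All 10 skeletal muscle markers examined, among them Acta1 and Ckm, were above the filter level in both groups, and 1 of them, Mb, was lower in diabetic muscle. Of 21 genes of tissues that muscle does not contain, such as Prm1 of sperm and Gcg of the pancreatic islet, 2 in each group had means above that level, and the median of their group means was 17.0 in diabetic and 20.6 in normal muscle. Since whole muscle was measured, fewer cells of a type and less RNA per cell cannot be told apart.

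By this level, 7 of the 8 members were above background in both diabetic and normal diaphragm, each of them on every array. Their group means lay at 7.67 to 38.9 times the level in diabetic and 3.77 to 24.8 times the level in normal muscle, through the probe set with the highest mean signal. Cryl1 was the exception. Its group means were 0.97 times the level in diabetic and 0.41 times the level in normal muscle, with 1 of 3 diabetic arrays and 0 of 3 normal arrays above it. Among the genes of tissues that muscle does not contain, the 90th percentile was 83.6 in diabetic and 104.9 in normal muscle. The diabetic mean of Cryl1, 102.9, was over that value and its normal mean, 43.2, was under it. The dimmer probe set of Por exceeded the level on 3 of 3 diabetic arrays and 0 of 3 normal arrays. Background is judged here by signal alone, without detection calls, and a brighter probe set does not mean a more abundant transcript when 2 genes are compared.

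**Figure D1:**
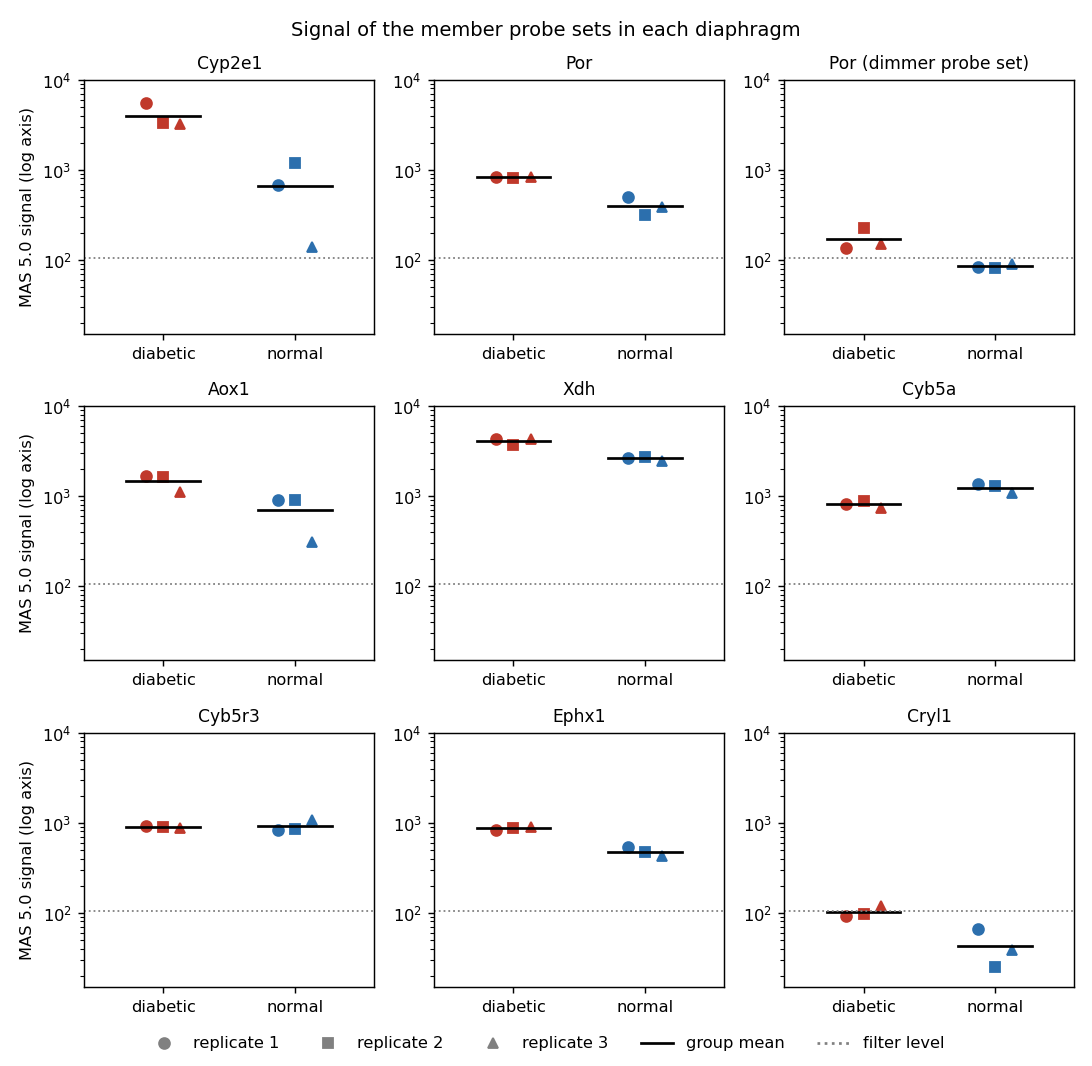
MAS 5.0 signal (log axis) of the 9 probe sets of the 8 member genes, with diabetic diaphragms in red, normal ones in blue, 1 point per rat, a bar at each group mean and a dotted line at the filter level of 105.8. The 3 diabetic points lie above the 3 normal points for every probe set except those of Cyb5a, where they lie below, and Cyb5r3, where the groups overlap.

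Of the 7 members above the filter, 4 were higher in diabetic diaphragm (Cyp2e1, Por, Xdh and Ephx1), 1 was lower (Cyb5a) and 2 did not pass the test (Aox1 and Cyb5r3). Among all 7080 tested genes, 3.46% were higher and 3.55% were lower, 7.01% in all. Of the 4 members that the study had not selected, 2 rose, 1 fell and 1 did not pass. Each of these 4 changed by less than the 2-fold that the study's list required, so they could not be on it. The median log2 fold change of the 7 was 0.86, against 0.008 over all tested genes. Counting all 8, the signals of the groups did not overlap in the upward direction for 6 and in the downward direction for 1, where 12.4% and 12.5% of all genes did so. Among the 7 tested it was 5 and 1, where 15.9% and 14.9% of tested genes did so. The median and the upward counts include genes that the study had selected for a rise on these arrays, so they are partly fixed by that choice. Of the members not selected, Xdh and Ephx1 were apart upward, Cyb5a was apart downward and Cyb5r3 overlapped.

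Cyp2e1, the ethanol- and acetone-oxidizing P450, had the largest change of the set. Its signals were 5458.4, 3299.9 and 3253.5 in the diabetic diaphragms, against 681.4, 1185.3 and 137.3 in the normal diaphragms. The lowest diabetic signal was 2.74 times the highest normal one, and the normal animals differed among themselves far more, with a coefficient of variation of 78.5%, against 31.5% in the diabetic animals. The difference of the log2 means, diabetic minus normal, was 3.02 (standard error, SE, 0.61, limma adjusted p = 0.018), with a 95% interval for the fold of 3.15 to 20.8. The ratio of group means was 5.99, but 9.78 without normal replicate 2 and 4.29 without normal replicate 3, and the call for Cyp2e1 needed diabetic replicate 1 (adjusted p = 0.066 when that array was dropped).

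Cyp2e1 is abundant in hepatocytes, and the diaphragm lies against the liver, so hepatocyte markers were read on the same arrays. Of 16 such markers with a probe set (17 in the list), 14 had means at or below the filter level in both groups. Alb, the serum albumin gene, had signals of 42.1, 19.9 and 33.7 in diabetic and 11.5, 51.2 and 247.4 in normal diaphragms. The P450s Cyp2c11 and Cyp3a2, which are also liver products, had signals of 26.2 to 41.5 and 1.2 to 3.2 in diabetic and 49.1 to 68.6 and 0.7 to 2.9 in normal muscle. The summed signal of the 16 markers was 645.3 to 830.6 in diabetic and 707.8 to 1029.6 in normal diaphragms, with overlap. Only F2, the prothrombin gene, passed the test among them (2.19-fold higher, adjusted p = 0.049), with a normal mean under the filter level, and the study had selected it too. The part of liver tissue in the Cyp2e1 signal was not tested.

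Adipocytes also express Cyp2e1 and Aox1. Of 9 adipocyte markers with a probe set (12 in the list), 7 were above the filter level in both groups, while Lep and Plin1 were below it, at 7.3 to 10.5 and 25.6 to 61.7 in diabetic and 5.4 to 10.2 and 46.0 to 81.5 in normal muscle. The summed signal of the 9 was 24028.8 to 29397.8 in diabetic and 23396.2 to 32325.0 in normal diaphragms, again with overlap, and the only one that passed the test was Slc2a4, a glucose transporter that muscle fibres also express, which was lower. Normal replicate 3, lowest for Cyp2e1, also had the lowest adipocyte sum of the normal group. Lpl, the largest part of that sum, was 11405.5 on this array, against 15033.4 and 14886.2 on the other normal arrays. Fabp4, Lipe, Pck1, Cfd and Slc2a4 also had their lowest normal signal there, while Lep, Plin1 and Pparg did not. The part of fat cells in the signals of Cyp2e1 and Aox1 was not tested.

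**Figure D2:**
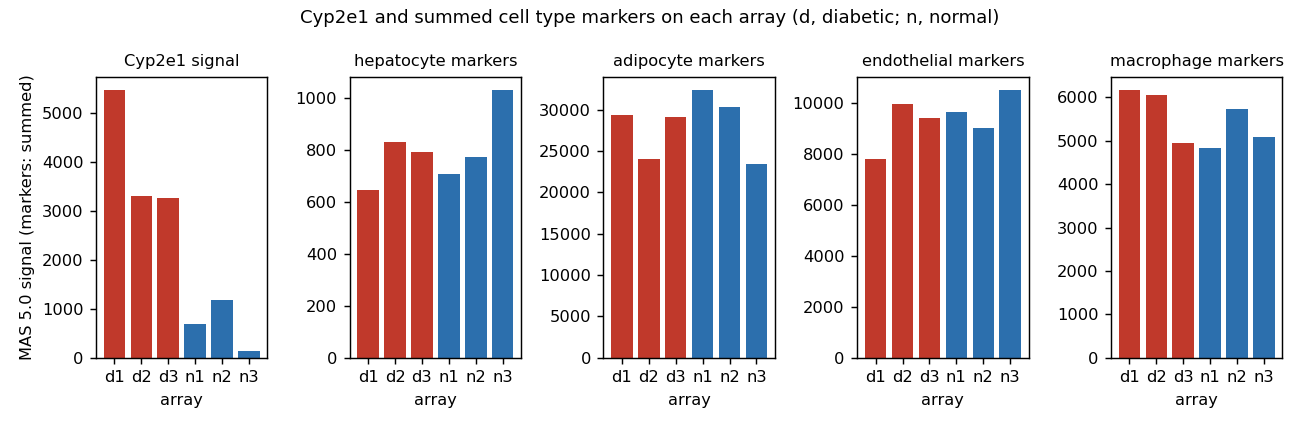
Signal of Cyp2e1 and summed signals of hepatocyte, adipocyte, endothelial and macrophage markers (linear axes from 0) on each array, diabetic arrays (d1 to d3, red) left of normal ones (n1 to n3, blue). Cyp2e1 separates the groups, at 3253.5 and above in diabetic and 1185.3 and below in normal muscle, while each marker sum overlaps between them.

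Por, the P450 reductase, was very even among diabetic animals. Its brighter probe set had signals of 838.3, 802.7 and 840.6 in the diabetic diaphragms and 498.0, 310.9 and 387.6 in the normal ones. Every diabetic muscle was above every normal muscle, and the coefficient of variation was 2.57% in the diabetic and 23.6% in the normal group. The difference of the log2 means was 1.08 (SE 0.19, limma adjusted p = 0.0099), a 2.07-fold difference, and it passed whichever of the 6 arrays was dropped. The dimmer probe set had signals of 135.7, 226.0 and 148.7 in diabetic and 82.7, 81.7 and 90.1 in normal diaphragms. Its ratio of group means was 2.01, and it missed the threshold (0.97 log2 units, SE 0.27, limma adjusted p = 0.059). Its normal mean was under the filter level, so it entered the fit only through its diabetic signals and is no support for the brighter probe set. Over the alternatives its adjusted p ranged from 0.037, without a trend in the variance prior, to 0.20, without diabetic replicate 2.

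In the cytochrome b5 branch the carrier was lower and the reductase did not pass the test. Cyb5a, the b5 carrier itself, was the only member that fell. Its signals were 813.7, 887.8 and 731.5 in the diabetic diaphragms, against 1356.6, 1310.7 and 1079.8 in the normal ones, with no overlap. It was 1.54-fold lower (-0.62 log2 units, SE 0.16, limma adjusted p = 0.046). This call is close to the threshold. Dropping any 1 array other than normal replicate 3 ended it (adjusted p up to 0.15), and so did scaling the arrays to the same median, testing without a filter or omitting the trend in the variance prior (adjusted p = 0.063, 0.060 and 0.075). Of 7 fibroblast markers, the collagens Col1a1, Col1a2 and Col3a1 and the proteoglycan Lum were also lower in diabetic muscle. Dcn, Fbln1 and Pdgfra overlapped between the groups and did not pass (limma adjusted p = 0.68, 0.64 and 0.33). The summed signal of the 7 was 22104.8 to 23171.9 in diabetic and 43316.1 to 47556.0 in normal diaphragms, without overlap. The part of fibroblasts in the fall of Cyb5a was not tested.

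Cyb5r3, the NADH reductase that feeds cytochrome b5, had signals of 917.3, 888.1 and 873.9 in diabetic and 840.4, 840.9 and 1080.0 in normal diaphragms. The groups overlapped, and normal replicate 3 held the highest of the 6 values. The difference of the log2 means was -0.03 (SE 0.16, limma adjusted p = 0.92), with a 95% interval of -0.39 to 0.32, so a change of up to 0.765-fold or 1.25-fold is not shut out by these arrays. Cyb5r3 also serves red blood cells, where it keeps haemoglobin reduced. The summed signal of the 3 red blood cell markers with a probe set (5 in the list) was 15650.9 to 26822.9 in diabetic and 14440.7 to 17257.5 in normal muscle, and the part of blood in the Cyb5r3 signal was not tested.

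Ephx1, the epoxide hydrolase downstream of the P450s, rose with little spread. Its signals were 832.1, 870.7 and 896.2 in the diabetic diaphragms, against 539.9, 467.1 and 426.8 in the normal diaphragms. The lowest diabetic signal was 1.54 times the highest normal one. The difference of the log2 means was 0.86 (SE 0.16, limma adjusted p = 0.011), a 1.81-fold difference. Ephx1 and the brighter probe set of Por were the only 2 of the 8 tested member probe sets that passed under each alternative that was run, with adjusted p up to 0.044 and 0.035.

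Both molybdenum flavoproteins were higher in signal, 1 of them past the threshold. Xdh, which turns hypoxanthine into xanthine and urate, had signals of 4275.6, 3718.6 and 4336.2 in the diabetic diaphragms, against 2692.9, 2727.8 and 2458.0 in the normal ones. It was 1.57-fold higher (0.64 log2 units, SE 0.14, limma adjusted p = 0.022), with coefficients of variation of 8.28% in the diabetic and 5.59% in the normal group. Dropping any 1 array other than diabetic replicate 2 ended the call (adjusted p up to 0.070), as did a fit without a trend in the variance prior (adjusted p = 0.051). Xdh is often found in the endothelium of small vessels. Of 8 endothelial markers with a probe set (10 in the list), Kdr, a receptor for vascular endothelial growth factor, was higher, Tie1 was lower and 6 did not pass, and their summed signal was 7814.0 to 9935.8 in diabetic and 9000.3 to 10482.9 in normal muscle. Their part in the Xdh signal was not tested.

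Aox1, the aldehyde oxidase, had signals of 1698.9, 1620.9 and 1127.5 in diabetic and 896.9, 915.8 and 314.2 in normal diaphragms. The groups did not overlap, but the lowest diabetic signal was 1.23 times the highest normal one, and normal replicate 3 stood well under the other 2. It stayed short of the threshold (1.20 log2 units, SE 0.36, limma adjusted p = 0.079). Without normal replicate 3 the log2 fold change was 0.69, against 1.46 without normal replicate 2, and neither passed (adjusted p = 0.099 and 0.066).

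Cryl1, the L-gulonate dehydrogenase, was not tested in the fit because its mean signal over the 6 arrays, 73.1, was below the filter. Its signals were 93.0, 96.4 and 119.3 in diabetic and 65.5, 25.2 and 39.0 in normal diaphragms, without overlap (p = 0.1 in a 2-sided exact permutation test, and 3 rats against 3 cannot give less). When the filter was left out, the log2 difference was 1.35 (SE 0.41, limma adjusted p = 0.13) and stayed short of the threshold. The ratio of group means was 2.38, a value that is imprecise at signals this near to background.

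**Figure D3:**
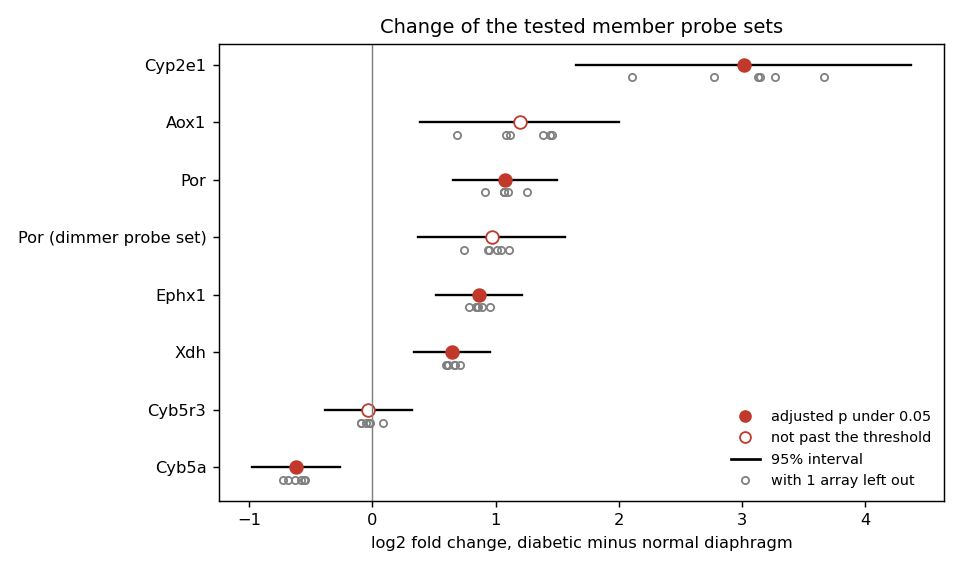
Log2 fold change (diabetic minus normal diaphragm) of the 8 tested member probe sets, with 95% intervals from limma and, as small open circles, the values with each of the 6 arrays left out. Filled points passed at an adjusted p under 0.05. Cyp2e1 is farthest to the right at 3.02 with the widest interval, and Cyb5a is the only filled point below 0, at -0.62.

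Normal replicate 3 had the lowest normal signal for 5 of the 8 members (Cyp2e1, Aox1, Xdh, Cyb5a and Ephx1), and Cyp2e1 and Aox1 stood there at -3.31 and -1.62 log2 units from their means over the 6 arrays. This was not a feature of the members alone. Of the 314 probe sets called higher in diabetic muscle, 65.9% had their lowest normal signal on the same array. Without that array 186 probe sets were higher and 177 lower, and of the members Cyp2e1, Por, Ephx1 and Cyb5a passed.

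**Figure D4:**
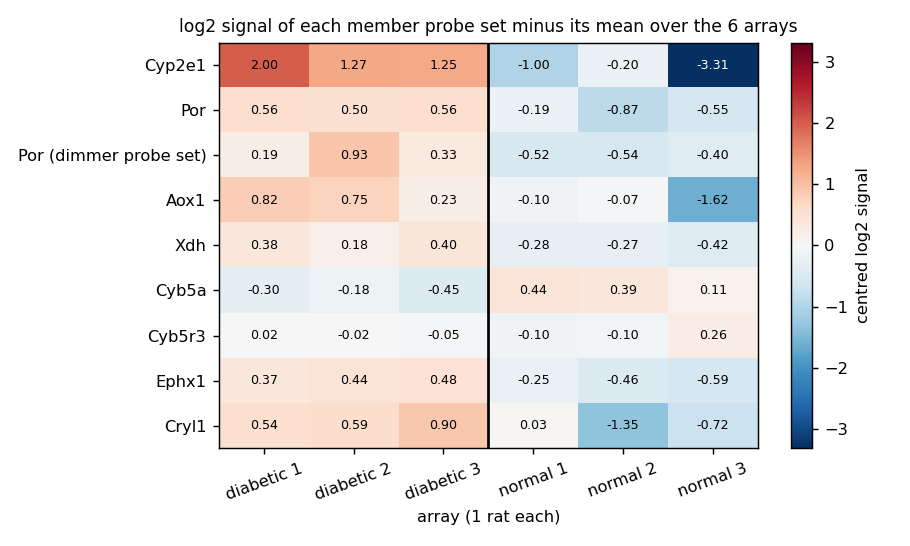
Log2 signal of each member probe set minus its own mean over the 6 arrays, by array, with diabetic arrays left of the line. Red is above the mean and blue below it. The deepest blue cell is Cyp2e1 on normal replicate 3, at -3.31, followed by Aox1 on the same array, at -1.62.

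The 5 tested genes whose centred log2 signals lay nearest to those of Cyp2e1, by Euclidean distance over the 6 arrays, were LOC100912629 (distance 1.34), Coa7 (1.49), Pnpla7 (1.55), Pik3c2g (1.59) and Osgin1 (1.77). Coa7 is a mitochondrial protein of cytochrome oxidase assembly, Pnpla7 is a lysophospholipase, and Pik3c2g is a lipid kinase. Pnpla7 had signals of 2798.7, 4211.0 and 2446.7 in diabetic and 1197.3, 1157.7 and 230.5 in normal diaphragms. All 5 had their lowest signal on normal replicate 3. They were picked for nearness to Cyp2e1 on these arrays, so this and their higher diabetic signals follow from the choice, and no test of them is given. Pik3c2g and Osgin1 were among the genes the study had selected.

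Around the members, 121 further genes of related pathways had a probe set and 63 were tested. Of these, 6 were higher (9.52%), 2 were lower (3.17%) and 55 did not pass the test, where 3.46% of all tested genes were higher and 3.55% were lower. All 6 that were higher had their lowest normal signal on normal replicate 3, as had 65.9% of all probe sets called higher. The annotation named 53 cytochromes P450, of which 10 were above the filter. Besides Cyp2e1, Cyp4b1, a fatty acid hydroxylase known from lung, was the only one that passed. Its signals were 1734.0, 1032.5 and 1121.8 in diabetic and 815.8, 719.7 and 493.7 in normal diaphragms, 1.92-fold higher (adjusted p = 0.047), and it did not pass in any case with 1 array left out (adjusted p up to 0.13). The other 8, among them the sterol demethylase Cyp51 and the bile acid enzyme Cyp27a1, did not pass. Of these 8, Cyp1b1 was higher and Cyp2j4 lower without overlap of the groups (limma adjusted p = 0.088 and 0.19). The median log2 fold change of the 10 was -0.01. Fmo1, the 1 flavin monooxygenase with a probe set, a microsomal enzyme that oxidizes nitrogen and sulphur without a P450, had signals of 940.3, 1315.3 and 1329.8 in diabetic and 698.2, 770.6 and 470.0 in normal muscle (1.85-fold, adjusted p = 0.038), and was lost in 4 of 6 fits with an array dropped.

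Of 9 tested genes of microsomal electron transfer, Por rose, Cyb5a fell and 7 did not pass. Hmox1, the inducible haem oxygenase, which takes its electrons from Por, had signals of 964.5, 301.7 and 433.7 in diabetic and 274.3, 241.1 and 94.2 in normal diaphragms (1.45 log2 units, SE 0.46, limma adjusted p = 0.089, and 0.96 log2 units without normal replicate 3). Of 9 tested enzymes that take electrons from Por or cytochrome b5, 1 changed. Scd, the desaturase of stearoyl-CoA and a main user of cytochrome b5, had signals of 94.2, 114.1 and 82.1 in diabetic and 305.5, 645.1 and 980.1 in normal diaphragms. It fell by 2.59 on the log2 scale (SE 0.36, adjusted p = 0.0036), although its diabetic mean was below the filter level. Fads1, Fads3 and Scd2, further desaturases, did not pass (adjusted p = 0.43, 0.61 and 0.73). Sc5d of the same list did not pass through its brighter or its dimmer probe set (limma adjusted p = 0.13 and 0.46). Its brighter probe set was lower without overlap, at 106.5 to 124.2 in diabetic and 148.6 to 212.1 in normal muscle. Fads2, below the filter and not tested, was at 60.2 to 83.7 in diabetic and 100.6 to 161.2 in normal muscle.

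Among epoxide hydrolases and conjugating enzymes, 3 of 8 tested genes rose and 0 fell. With Ephx1 these were Sult1a1, a sulphotransferase of phenols, with signals of 3869.9, 2950.6 and 3467.2 in diabetic and 1953.4, 1933.3 and 885.3 in normal diaphragms (2.16-fold, adjusted p = 0.031), and Mgst2, a microsomal glutathione transferase (1.64-fold, adjusted p = 0.044). Mgst2 was lost in 6 of 6 fits with an array dropped and Sult1a1 in 3 of 6. Ephx2, the soluble epoxide hydrolase, gave a log2 difference of 0.17 (SE 0.19, adjusted p = 0.63).

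Of 9 tested genes of molybdenum enzymes and their cofactor, 2 rose and 0 fell. Beside Xdh this was Mtarc1, an amidoxime reductase of the mitochondrial outer membrane that takes electrons through a cytochrome b5 and Cyb5r3. Its signals were 1041.4, 1024.1 and 1091.8 in diabetic and 424.7, 409.0 and 165.2 in normal diaphragms, a 3.16-fold difference (1.78 log2 units, SE 0.31, limma adjusted p = 0.0099). A second probe set of Mtarc1 was 3.67-fold higher (adjusted p = 0.0024). Mtarc2, its close relative, and the cofactor genes Gphn, Mocos, Mocs1 and Mocs2 did not pass (adjusted p = 0.22 to 0.75).

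In the purine breakdown list, which includes Xdh itself, 2 of 10 tested genes rose and 0 fell. Ampd3, an AMP deaminase that the study had selected, had signals of 1257.0, 1300.6 and 1573.4 in diabetic and 357.1, 496.8 and 325.6 in normal diaphragms (3.50-fold, adjusted p = 0.0010), and Xdh was the other. Ampd1, the deaminase of muscle fibres, gave a log2 difference of -0.29 (adjusted p = 0.24), and Pnp, which yields hypoxanthine, one of 0.03 (adjusted p = 0.93). In alcohol and aldehyde oxidation 1 of 11 tested genes changed, Aldh4a1 of proline breakdown, which was lower (-0.71 log2 units, adjusted p = 0.041) and did not pass in 5 of 6 cases with 1 array left out. Aldh3a1, an oxidizer of aromatic and lipid aldehydes, had signals of 257.5, 241.3 and 197.2 in diabetic and 278.1, 151.8 and 59.4 in normal diaphragms, with overlap (0.76 log2 units, SE 0.45, adjusted p = 0.33). That value was 0.17 without normal replicate 3 and 1.28 without normal replicate 1. Catalase, which can also oxidize ethanol, was not called (0.35 log2 units, adjusted p = 0.35). Aldh2 of the same list was 1.57-fold higher without overlap of the groups but did not pass (0.64 log2 units, limma adjusted p = 0.094). In the uronate and polyol list, to which Cryl1 belongs, none of 7 tested genes passed, and 2, Akr1a1 and Akr1b1, had an unadjusted p under 0.05. Dcxr, a xylulose reductase, and Akr1b1, the aldose reductase that makes sorbitol, had log2 fold changes of -0.73 and -0.68 (adjusted p = 0.25 and 0.054), and that of Dcxr was -0.26 without diabetic replicate 3 and -1.16 without diabetic replicate 1.

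**Figure D5:**
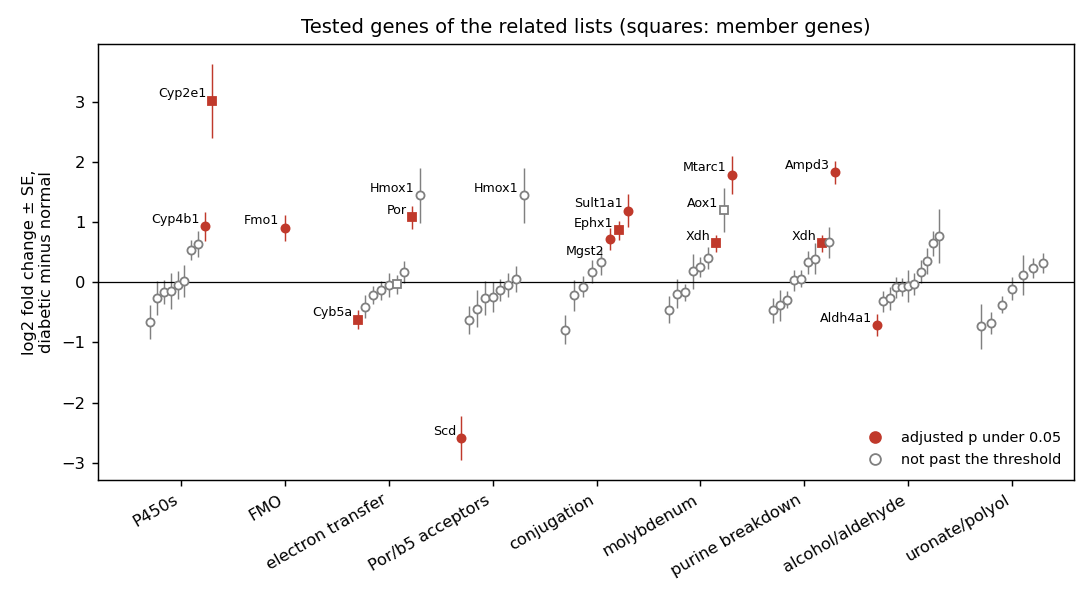
Log2 fold change (diabetic minus normal diaphragm) with standard errors for the tested genes of the 9 related lists, members drawn as squares. Red points passed at an adjusted p under 0.05, and genes that passed or lie more than 1 log2 unit from 0 are named. Cyp2e1 is the highest at 3.02 and Scd the lowest at -2.59, and a gene of 2 lists is drawn in both.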

How the data were processed

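Expression was measured in diaphragm of 3 diabetic and 3 normal rats, each rat being a sample of its own. The deposited intensity values are MAS 5.0 signals that the authors computed, 1 linear value per probe set of the RAE 230A array, scaled per array. For the target value and other settings, the sources used here give nothing, and present calls and the BAM test were not repeated.

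Signals under 1 (136 values) were set to 1, log2 was taken and no further normalization was applied. After 57 control probe sets and all probe sets whose mean did not exceed the 40th percentile (105.8) were left out, 9519 probe sets were fitted with limma 3.58.1 in R 4.3.3 (lmFit and eBayes with trend, 4 residual degrees of freedom), with Benjamini-Hochberg adjustment over all of them and a threshold of 0.05. The procedure was tested on simulated data. The number of arrays limits the precision, so a gene that did not pass is not shown to be unchanged.

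Folds divide the diabetic group mean of linear signals by the normal one, or the reverse where called lower. The platform annotation, with symbols updated through RefSeq, gave 1 gene for 12783 probe sets, several for 312 and none for 2771. Each gene was counted once, through its brightest probe set. The genes named are the members, the genes of each related list that passed (or, where fewer than 2 did, those with the largest log2 fold change up to 2), and the 5 genes nearest to Cyp2e1, Por and Xdh. Cyp51, Cyp27a1, Cyp1b1, Cyp2j4, Fads1, Fads2, Fads3, Scd2, Sc5d, Ephx2, Mtarc2, Gphn, Mocos, Mocs1, Mocs2, Ampd1, Pnp, Aldh2, Cat, Akr1a1 and the marker genes singled out were added after their values were seen. The members and lists were chosen with earlier results of these data known. Alternatives were other scalings, offsets, filters and variance priors, a block for the replicate number, array weights, and each array left out.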

Additional observations from a re-analysis of the deposited data

How the results depend on the processing

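The numbers of probe sets called were 314 higher and 331 lower. With 1 array left out they ranged from 135 to 226 higher and from 177 to 236 lower, and without a filter, which tests more probe sets, 200 were higher. Deviations of same-numbered arrays had correlations of 0.10, -0.20 and -0.07 for numbers 1, 2 and 3, against -0.12 to 0.20 for unlike-numbered ones. With 3 arrays per group this cannot decide whether the numbers pair the rats. With the replicate number as a block, which leaves fewer degrees of freedom, 162 probe sets were higher and 170 lower, 4 members were higher and 0 lower, Xdh did not pass (adjusted p = 0.065) and Aox1 did (adjusted p = 0.040). With 1 array left out, 2 to 4 members were higher and 0 or 1 lower, with 2 (Por and Ephx1) without diabetic replicate 1. The 1 member called lower, Cyb5a, was not called (0 members lower) with arrays scaled to the same median, without a filter, without a trend in the variance prior or with the block. The cause was not tested. The log2 difference of Cyb5r3, -0.03, was 0.020 with array weights and ranged from -0.094 without normal replicate 1 to 0.087 without normal replicate 3. The number of members above background was 7 under each alternative run. Cryl1 and the dimmer probe set of Por are limited by their low signals.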

Other observations

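The genes nearest in pattern to Por were Ier5, an immediate early response gene (distance 0.31), Nup98, a nucleoporin (0.33), Map1b, a microtubule-associated protein (0.37), Ppp1r15a, a stress-induced regulator of translation (0.41), and Sbsn (0.43). Ppp1r15a had signals of 888.0, 980.5 and 1028.6 in diabetic and 488.7, 415.3 and 519.2 in normal diaphragms. Map1b and Ppp1r15a had been selected by the study on these arrays. Nearest to Xdh were Scn7a, a sodium channel gene (distance 0.14), the Golgi proteins Golga5 (0.16) and Golga4 (0.18), Reep6 (0.19) and Nmt1, an N-myristoyltransferase (0.21). Golga4 had signals of 4312.1, 4043.3 and 4196.2 in diabetic and 2664.9, 2785.3 and 2757.5 in normal diaphragms. These genes were picked for nearness to Por or Xdh on the same arrays, so their higher diabetic signals follow from the choice and are given with no test.

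The sum of 6 macrophage markers was 4949.6 to 6158.2 in diabetic and 4827.2 to 5732.0 in normal diaphragms. Of these markers 5 were tested and none passed in limma (0 at an unadjusted p under 0.05). Aif1, below the filter and not tested, had signals of 32.2, 59.0 and 34.6 in diabetic and 88.3, 95.8 and 116.2 in normal diaphragms, without overlap.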
